A study of Rattus norvegicus with 12 samples.

Results

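Chemokines, interleukins, ligands of the tumor necrosis factor (TNF) family and the receptors of these 3 groups were followed in the kidney of rat fetuses whose mothers lived under a regular or a repeatedly reversed photoperiod. The members are the genes whose symbol begins as the standard names of these families do (Ccl, Cxcl, Ccr, Cxcr, Il, Tnf, Tnfsf or Tnfrsf), which gave 131 of the 14557 genes that carry a symbol of their own on the array. They comprise 27 chemokines, 16 chemokine receptors, 37 interleukins with their antagonists, 28 interleukin receptor chains, 10 TNF ligands and 13 TNF receptors.

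Chemokines are small secreted proteins that direct the movement of cells through receptors coupled to G proteins. Interleukins act through receptor chains that recruit Janus kinases (JAK) and STAT transcription factors or, for the interleukin (IL)-1 and IL-17 families, adaptors that lead to the transcription factor NF-kB. TNF ligands act as trimers, and their receptors recruit adaptors of the TRAF family or, through a death domain of their own, other adaptors. In kidney these families are known from resident macrophages, endothelium, stroma and the nephron epithelium itself, and in RNA of a whole organ fewer cells of a type and less RNA per cell cannot be told apart.

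Sprague-Dawley females were kept during pregnancy either under 12 h of light and 12 h of dark (LD) or under chronic photoperiod shifting (CPS), in which light and dark were reversed every 3 to 4 days until the regular photoperiod was restored at 18 days of gestation. At 19 days the kidneys of fetuses of undetermined sex, 6 per mother by the sample labels, were pooled, and 6 pools of each group were hybridized to 1 array each. The methods of the study speak of pooled kidneys from 6 mothers and do not say whether a pool mixed mothers. The clock time of collection is given as 8 h in the protocol and in the methods and as 20 h in another field of the labels. The deposited values are on a log2 scale after Robust Multiarray Average (RMA), so that a difference of 1 is a doubling of the signal.

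Array medians lay between 3.31 and 3.50, and any 2 arrays correlated at 0.978 to 0.987 across all 36685 transcript clusters, which are not independent replicates. All 12 measured genes of a list of kidney markers were above the dim reference defined below, with a mean of 7.16 ± 0.11 in LD and 7.27 ± 0.15 in CPS (SD, n = 6). The mean of 13 liver genes ranged from 4.51 to 6.77 in LD and from 5.002 to 7.13 in CPS, and it was highest in LD replicate 6 and CPS replicate 2. A list of 7 skeletal muscle genes reached 7.09 in CPS replicate 1. The part of this other tissue in the results was not tested.

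Detection calls were not used here. A gene was therefore called dim when its mean over the 12 arrays did not exceed 2.66, the 95th percentile of 1247 olfactory and vomeronasal receptor genes, whose median was 1.71. By this measure 72 of the 131 members (55.0%) were above dim signal, against 72.6% of all named genes. Just inside was Cxcr5 at 2.665 and just outside Tnfrsf13c at 2.628. The value of a transcript cluster depends on its probes, so the order of the members by value is not an order of abundance.

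The share above dim signal differed by role. Among the chemokines 21 of 27 were above it, and among the TNF receptors 10 of 13. Interleukin receptor chains followed with 17 of 28 and TNF ligands with 6 of 10, while only 6 of 16 chemokine receptors and 12 of 37 interleukins were above it. The interleukins at dim signal included Il2, Il3, Il4, Il5, Il7, Il9, Il13, Il17a and Il22, the products of lymphocytes, mast cells or marrow and thymic stroma. Of 9 lymphocyte genes, Cd4 and Cd8a alone were above dim signal, while the T cell receptor subunits Cd3e, Cd3d and Cd3g and the B cell gene Ms4a1 were not. Of 15 leukocyte and macrophage genes, 14 were above it.

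**Figure D1:**
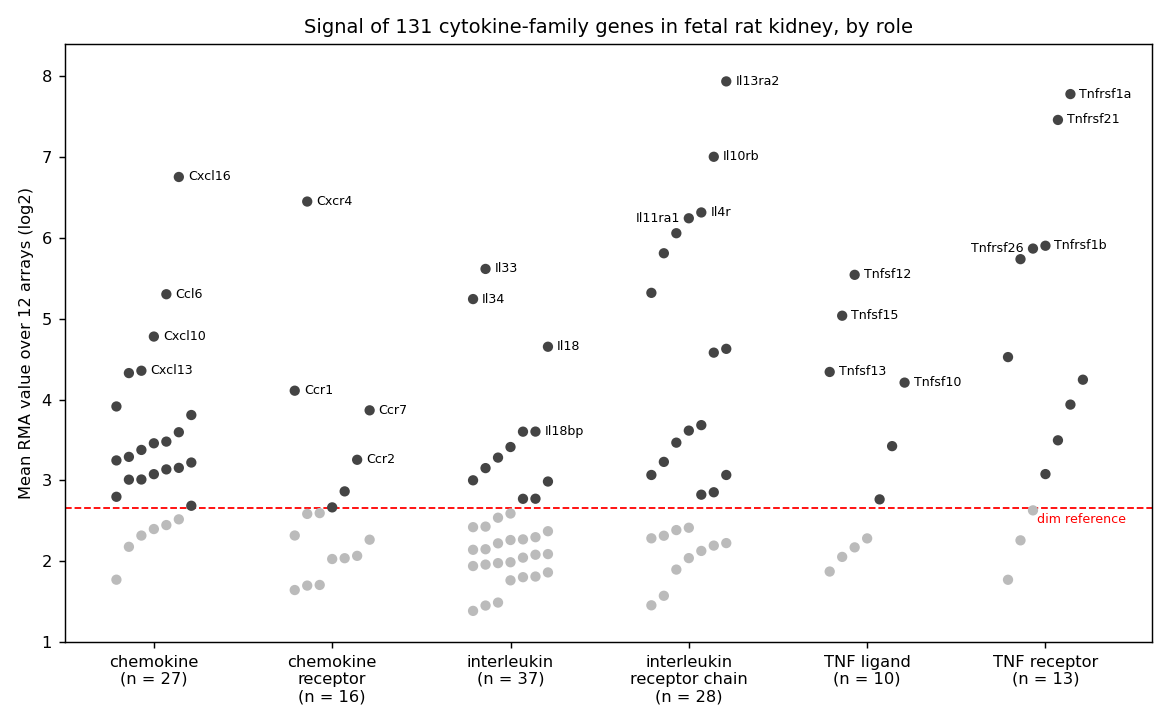
Mean RMA value (log2, vertical axis) of each member over the 12 arrays, by role on the horizontal axis. Each point is 1 gene, grey where it does not exceed the dim reference of 2.66 (dashed line), and the highest genes above the line in each role are named. Most interleukins lie below the line and most chemokines and TNF receptors above it.

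In 71 textbook pairs of a ligand and a receptor chain or, for Il18, its soluble binding protein Il18bp, put together after the values had been seen, both partners were above dim signal in 22. In 26 pairs the receptor or binding protein alone was above it, in 10 the ligand alone and in 13 neither. The receptor-only pairs were led by Il13ra2 at 7.94, a decoy receptor of IL-13, Il10rb at 7.004, the chain shared by the receptors of IL-10 and IL-22, Il4r at 6.32 and Il11ra1 at 6.24, whose ligands Il13, Il10, Il22, Il4 and Il11 had means of 1.80 to 2.54. A second cluster of Il13ra2 had a mean of only 3.19, and its difference between CPS and LD was -0.02 (limma unadjusted p = 0.88). Ligand-only pairs included Cxcl16, a chemokine that is made as a membrane protein, with a mean of 6.75, and its receptor Cxcr6 with 2.27, and Ccl20 with 3.91 and its receptor Ccr6 with 2.04. Among the pairs with both partners above dim signal, Tnfsf12 (the cytokine TWEAK) had a mean of 5.54 and its receptor Tnfrsf12a one of 5.74. Cxcr4, the receptor for CXCL12 that guides vessel and nephron formation, had a mean of 6.45. It averaged 6.45 ± 0.22 in LD and 6.45 ± 0.12 in CPS (SD, n = 6), and the 95% interval of limma for the difference ran from -0.22 to 0.23. Ackr3, which binds the same chemokine and removes it, averaged 8.77 ± 0.05 in LD and 8.85 ± 0.12 in CPS (exact two-sided permutation p = 0.134), and Cxcl12 itself was not analysed here.

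The comparison of CPS with LD asks how the reversal of the mother's photoperiod bears on these genes before birth. At an unadjusted limma p under 0.05, the threshold of the study, 2 members were higher in CPS (Il12rb2 and Cxcr6) and 4 were lower (Tnfrsf18, Cxcr5, Ccl22 and Cxcl11). These 6 are 4.58% of the members, and 4.72% of all named genes were called by the same rule (2.94% higher and 1.78% lower), so the members were called about as often as other genes. Above dim signal 3 of the 72 members were called (4.17%), against 4.77% of the named genes there. Among these 3, Cxcr5 exceeded the dim reference only through LD, as its CPS mean was below it. With each array centred on its median the split was 6 higher and 1 lower among the members and 532 higher and 96 lower among all 14557 named genes, as the array medians in CPS were lower by 0.0373 on average. Without LD replicate 6 and CPS replicate 2, the arrays of highest liver signal in their groups, 1 member was higher and 4 were lower, 0 of them above dim signal by limma. Of these 5, 3 were among the 6 calls above, and Ccr10 and Il31ra were added. In that fit 337 of all 14557 named genes were higher and 183 were lower. None of the members had groups that did not overlap, against 0.295% of all named genes. After Benjamini-Hochberg adjustment over all 36685 clusters limma called 0 members and 0 clusters, the lowest adjusted p being 0.887. By the exact two-sided permutation test 6 members had an unadjusted p under 0.05, namely the called ones other than Cxcr6, and Il10rb. The median log2 difference between CPS and LD was 0.01 over the members and 0.01 over all named genes, and 54.2% of the members were positive against 53.6% of all named genes.

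Of the 72 members above dim signal, 57 had a 95% interval of limma within 0.5 of 0 on the log2 scale, and 71 had one within 1, the exception being Cxcl13. An interval within 0.25 of 0 was reached by 9. The median residual SD of these 72 members was 0.230, whereas that of all named genes above dim signal was 0.160, at median levels of 3.61 and 6.47.

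**Figure D2:**
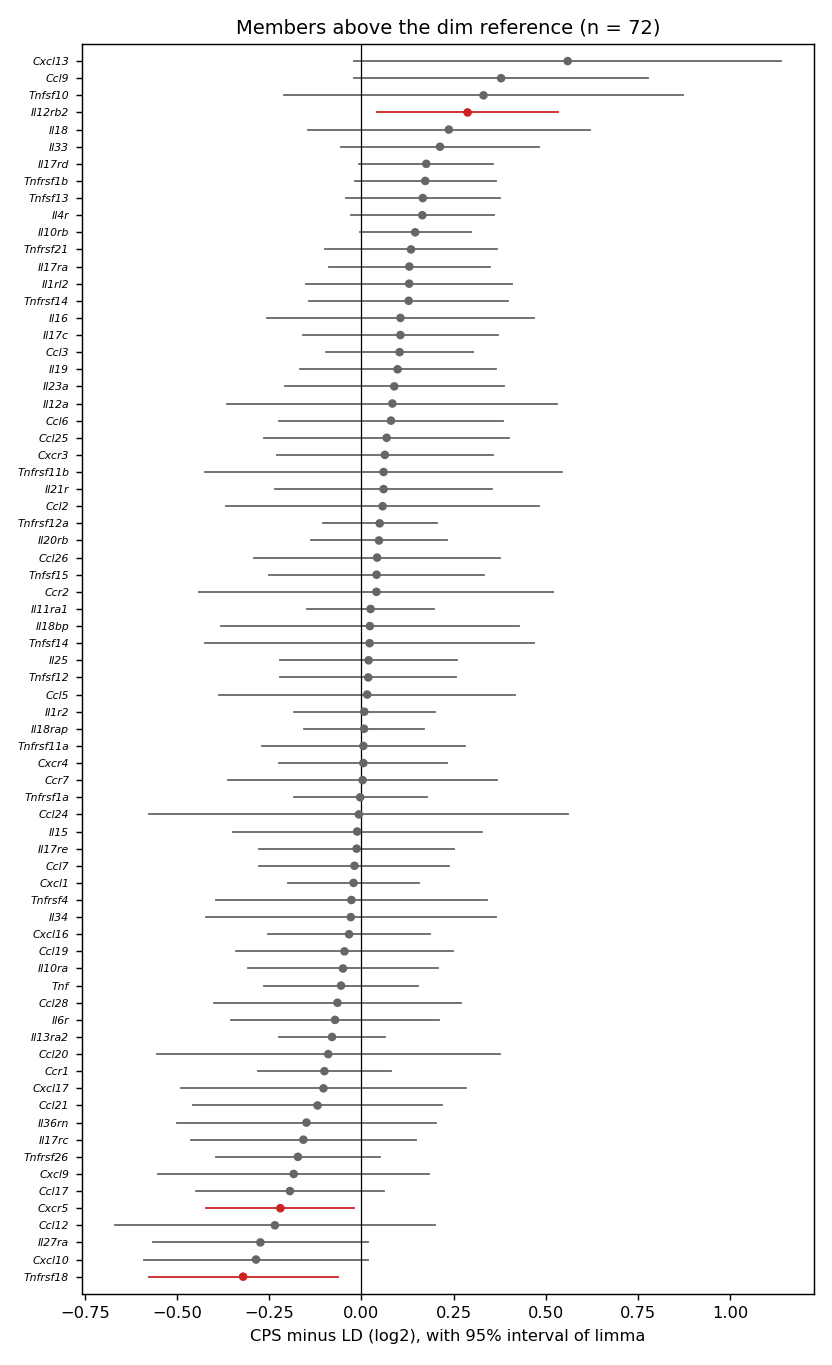
Difference between CPS and LD (log2, horizontal axis) for the 72 members above dim signal, 1 per row and sorted by value. Points are the differences and lines their 95% intervals in limma (6 arrays per group), red for an unadjusted p under 0.05. The 3 red lines belong to Il12rb2, Cxcr5 and Tnfrsf18, and the widest departures on the positive side, Cxcl13 and Ccl9, have intervals that reach 0.

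Il12rb2 encodes the signalling chain of the receptor for IL-12, best known from T and natural killer cells. Its values in LD had a lowest of 5.72, a median of 5.91 and a highest of 6.08, and in CPS a lowest of 6.02, a median of 6.13 and a highest of 6.64. The groups overlapped from 6.02 to 6.08, a narrow range that held LD replicates 1 and 4 and CPS replicates 3, 4 and 6. The highest value was in CPS replicate 2. The gene was higher in CPS by 0.29 (standard error 0.11, limma unadjusted p = 0.0254, exact two-sided permutation p = 0.0238). Without LD replicate 2 the difference was 0.25 (limma unadjusted p = 0.0576), and without LD replicate 6 and CPS replicate 2 together it was 0.18 (limma unadjusted p = 0.0825), neither called. The call was also lost with the liver mean as a covariate and with replicate numbers as a block. The ligand chains Il12a, with a mean of 2.77, and Il12b, at the dim mean of 2.26, differed by 0.08 and 0.00, neither called.

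Tnfrsf18, also known as GITR, is a costimulatory receptor of T cells. It had a lowest value of 3.32, a median of 3.75 and a highest of 3.94 in LD, against 3.10, 3.39 and 3.46 in CPS. The 2 lowest LD pools lay within the CPS range and the other 4 lay above every CPS pool. The difference was -0.32 (standard error 0.12, limma unadjusted p = 0.0184, exact two-sided permutation p = 0.0346). It was called in each of the 12 fits that left out 1 array, and without LD replicate 6 and CPS replicate 2 together it was -0.22 and was not called. Tnfrsf4 (OX40), its neighbour among the protein-coding genes of chromosome 5 (RefSeq, GRCr8), differed by -0.03, and its ligand Tnfsf18 had a dim mean of 1.87.

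Cxcr5, the receptor by which B cells enter follicles, averaged 2.77 ± 0.18 in LD and 2.56 ± 0.11 in CPS (SD, n = 6). The CPS mean was below the dim reference of 2.66, so a difference of array values need not be one of transcript here either. The difference of -0.22 (limma unadjusted p = 0.0341, exact two-sided permutation p = 0.0390) was lost in 6 of the 12 fits that left out 1 array, those without LD replicate 1, 3 or 6 or CPS replicate 3, 5 or 6, where it lay between -0.18 and -0.22. It was also lost in 5 of 9 other fits, among them median centring at -0.18, a further quantile normalization at -0.19 and an intensity trend with robust spread. Without LD replicate 6 and CPS replicate 2 together it was -0.19 (limma unadjusted p = 0.0859). Cxcl13, its ligand, had a lowest value of 3.54, a median of 4.22 and a highest of 4.45 in LD and 3.77, 4.63 and 5.42 in CPS. Its groups overlapped widely, and its residual SD of 0.50 was the largest among the 72 members above dim signal. The difference of 0.56 had a 95% interval from -0.02 to 1.14 (limma unadjusted p = 0.0569, exact two-sided permutation p = 0.0801). It was called without CPS replicate 4, where it was 0.73 (limma unadjusted p = 0.00971), and also without LD replicate 2 or CPS replicate 6, at 0.63 and 0.64, whereas without CPS replicate 3 it was 0.40 (limma unadjusted p = 0.131).

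The other 3 called members lay at dim signal, where a difference of array values need not be one of transcript. Ccl22, a macrophage chemokine for the receptor CCR4, averaged 2.56 ± 0.08 in LD and 2.33 ± 0.14 in CPS (SD, n = 6, limma unadjusted p = 0.0109, exact two-sided permutation p = 0.00649). It was called in each of the 12 fits that left out 1 array and lost under median centring, at -0.20. Cxcr6 averaged 2.11 ± 0.23 in LD and 2.42 ± 0.24 in CPS (exact two-sided permutation p = 0.0563) and was lost in 9 of those 12 fits, those other than without LD replicate 1, LD replicate 4 or CPS replicate 2, with values from 0.25 to 0.31. Cxcl11 averaged 1.86 ± 0.14 in LD and 1.68 ± 0.12 in CPS (exact two-sided permutation p = 0.0390) and was lost in 10 of them, those other than without LD replicate 6 or CPS replicate 6, with values from -0.19 to -0.14. It was also lost in 6 of 9 other fits, among them median centring at -0.15.

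**Figure D3:**
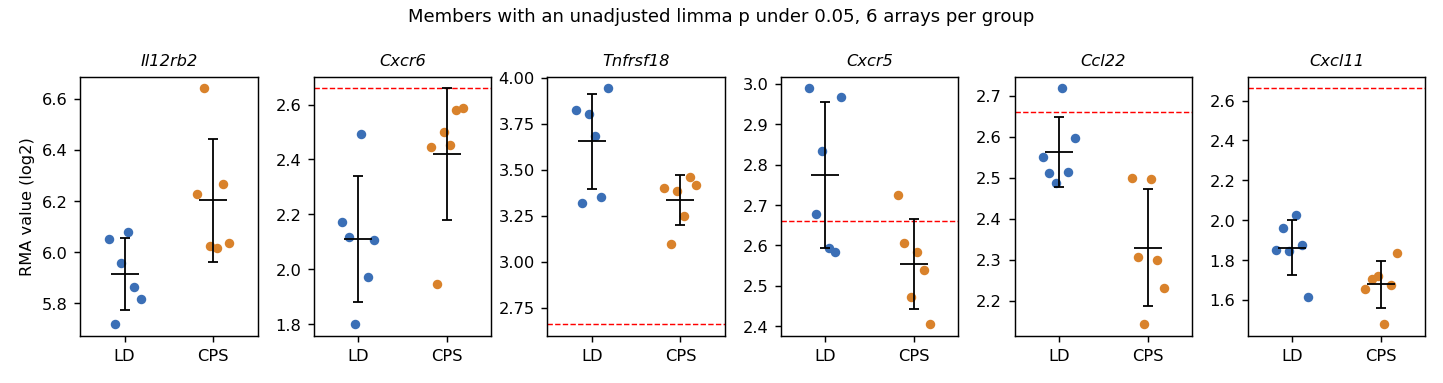
RMA values (log2, vertical axis, with a separate range in each panel) of the 6 called members in the 6 LD and the 6 CPS arrays. Points are arrays, bars the mean and SD, and the dashed line marks the dim reference of 2.66 in the panels whose values come near it. The groups overlap in every panel. Cxcr5 lies on both sides of the line, and Cxcr6, Ccl22 and Cxcl11 lie mostly or wholly below it.

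A further 8 members above dim signal had the next lowest p without being called. Il10rb averaged 6.93 ± 0.11 in LD and 7.08 ± 0.07 in CPS (SD, n = 6), a difference of 0.15 with a limma unadjusted p of 0.0561 and an exact two-sided permutation p of 0.0108. Its lowest LD pool, replicate 6, stood apart at 6.70, and without it the difference was 0.10 (limma unadjusted p = 0.119), while without CPS replicate 6 it was 0.17 and was called. Only 1 CPS pool lay within the LD range.

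Il17rd, which dampens fibroblast growth factor signalling besides its part in IL-17 receptors, differed by 0.18 (exact two-sided permutation p = 0.0519). Ccl9, a macrophage chemokine of rodents, had a lowest value of 2.33, a median of 3.02 and a highest of 3.37 in LD against 2.94, 3.34 and 3.86 in CPS, a difference of 0.38 (exact two-sided permutation p = 0.0801). It was 0.46 and called without LD replicate 6 or CPS replicate 1, whereas it was 0.25 without LD replicate 1 (limma unadjusted p = 0.137) and 0.28 without CPS replicate 2 (limma unadjusted p = 0.139). Its neighbours Ccl5, Ccl6, Ccl3 and Ccl4 on chromosome 10 differed by 0.02, 0.08, 0.10 and 0.09, none called. The remaining ones were Il27ra at -0.27, Cxcl10 at -0.29, Tnfrsf1b at 0.17 and Cxcl13, given above, with Il4r at 0.17 (limma unadjusted p = 0.0870). Il17rd was called without LD replicate 3, LD replicate 4 or CPS replicate 3, Il27ra without LD replicate 1 or CPS replicate 5, and Il4r without LD replicate 3 or CPS replicate 6.

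Cxcl9, Cxcl10 and Cxcl11 are chemokines induced by interferon-gamma that share the receptor Cxcr3 and follow each other on chromosome 14. All 3 were lower in mean in CPS, by -0.18, -0.29 and -0.18, and Cxcl11 alone, at dim signal, was called. Cxcl10 had a lowest value of 4.75, a median of 4.85 and a highest of 5.38 in LD against 4.27, 4.78 and 4.85 in CPS. Its highest value, in LD replicate 2, stood apart, and without that array the difference was -0.19 (limma unadjusted p = 0.144), whereas without CPS replicate 3 it was -0.33 and was called. Cxcl9 averaged 3.69 ± 0.36 in LD and 3.50 ± 0.25 in CPS (exact two-sided permutation p = 0.342), and Cxcr3 differed by 0.06.

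The 250 bases before the annotated start of these 3 genes (RefSeq, GRCr8, plus strand) are shown because these neighbours had lower means in CPS together. Capitals mark the motifs found on either strand, the interferon-stimulated response element (searched as GAAA, 2 bases of any kind and GAAA again) and the NF-kB consensus.
Cxcl9, chr14:16006916-16007165: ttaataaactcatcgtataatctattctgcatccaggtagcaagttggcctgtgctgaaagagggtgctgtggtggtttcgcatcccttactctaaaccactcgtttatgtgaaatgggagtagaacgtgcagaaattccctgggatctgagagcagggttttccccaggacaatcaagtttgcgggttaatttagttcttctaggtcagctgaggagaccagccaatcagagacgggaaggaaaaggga
Cxcl10, chr14:15988816-15989065: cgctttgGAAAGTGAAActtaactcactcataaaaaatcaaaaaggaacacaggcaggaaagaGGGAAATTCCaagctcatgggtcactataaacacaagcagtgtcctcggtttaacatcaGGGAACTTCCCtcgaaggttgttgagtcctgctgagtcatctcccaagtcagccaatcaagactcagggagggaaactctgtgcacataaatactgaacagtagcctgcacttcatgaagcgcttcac
Cxcl11, chr14:15973478-15973727: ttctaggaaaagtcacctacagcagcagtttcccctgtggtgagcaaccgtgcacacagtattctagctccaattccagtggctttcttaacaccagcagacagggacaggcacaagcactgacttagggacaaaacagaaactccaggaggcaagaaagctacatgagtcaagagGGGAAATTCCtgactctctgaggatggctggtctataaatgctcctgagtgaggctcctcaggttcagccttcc
In Cxcl10 the first capitals are the interferon-stimulated response element, 243 to 234 bases before the start. They are followed by an NF-kB match 187 to 178 bases before the start and by 2 that overlap, 128 to 119 and 127 to 118 bases before it. Cxcl11 held 1 NF-kB match, 74 to 65 bases before the start, and Cxcl9 held neither motif in this window. The interferon-stimulated response element occurred in 3.41% of 33469 promoters of this length and in 8 of the 98 members with a promoter in the table (8.16%). The NF-kB consensus occurred in 6.33% of all promoters and in 16 of these members (16.3%). A match is a run of letters and not a measured site.

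The study measured circulating cytokines in the grown offspring, so TNF, IL-1β, IL-6 and IL-10 were followed with those of their receptor chains that were measured here. Tnf had a lowest value of 3.21, a median of 3.44 and a highest of 3.77 in LD against 3.22, 3.44 and 3.50 in CPS. The groups lay over each other, and the 95% interval of limma for the difference ran from -0.26 to 0.15. Tnfrsf1a, the death domain receptor of TNF, was 7.78 in both groups (interval -0.18 to 0.18), and the second TNF receptor, Tnfrsf1b, averaged 5.82 ± 0.08 in LD and 5.99 ± 0.18 in CPS (SD, n = 6, exact two-sided permutation p = 0.0606). For Tnfrsf1b, 5 of the 6 CPS pools lay above every LD pool, and the remaining one, CPS replicate 1, was the lowest of all 12 at 5.64. Without that array the difference was 0.24 and was called (limma unadjusted p = 0.00389).

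Il1b, Il6 and Il10 were at dim signal. Il1b had medians of 1.84 in LD and 1.90 in CPS, with an interval for the difference of means from -0.28 to 0.26. Il6 had medians of 2.16 and 2.14 (interval -0.26 to 0.18), and Il10 medians of 2.34 and 2.15 (interval -0.51 to 0.20). None of these 3 was called, and whether a change of transcript would show in array values at this signal was not tested. Their receptor chains Il1r2, a decoy, Il6r and Il10ra had means of 2.82, 3.47 and 2.85 and differed by 0.01, -0.07 and -0.05, none called.

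**Figure D4:**
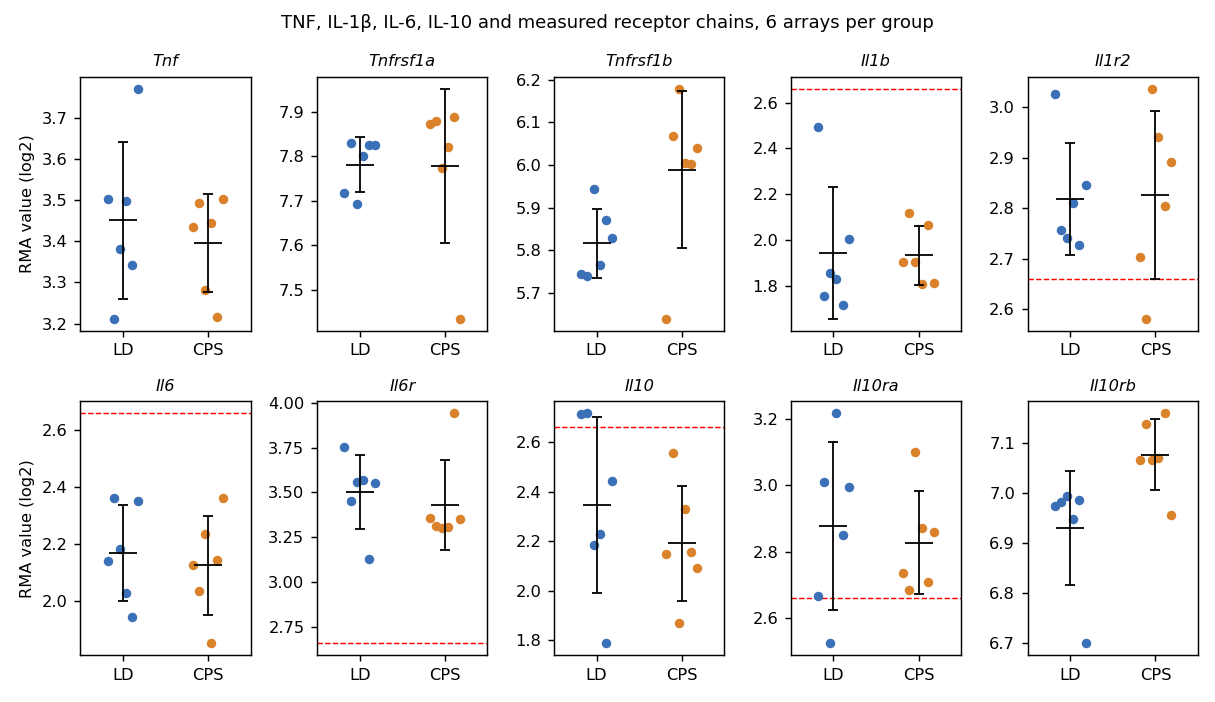
RMA values (log2, vertical axis, with a separate range in each panel) of TNF, IL-1β, IL-6 and IL-10 and of their measured receptor chains in the 6 LD and the 6 CPS arrays. Points are arrays, bars the mean and SD, and the dashed line the dim reference of 2.66 where it lies near the values. The groups overlap in every panel, with single arrays apart for Tnfrsf1a, Tnfrsf1b, Il6r, Il1b and Il10rb.

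Several members varied more among pools of 1 group than between the groups, which was common in these data. Over the 72 members above dim signal the median residual SD was 0.230 and the median size of the difference 0.08. Over all named genes above dim signal these were 0.160 and 0.07. Tnfsf10 (TRAIL), a ligand of death receptors, lay between 4.04 and 4.57 in 5 LD pools and at 2.89 in LD replicate 6, and its difference of 0.33 was 0.10 without that array. Tnfrsf11b (osteoprotegerin), a soluble decoy for RANKL and TRAIL, ranged from 3.98 to 4.95 in LD and from 3.77 to 4.94 in CPS. Ccl24 ranged from 2.53 to 3.79 in LD and from 2.57 to 3.90 in CPS, and Ccr2, the receptor by which monocytes leave the marrow, from 2.70 to 3.55 and from 2.73 to 3.95. Il33, an alarmin of the IL-1 family held in the nucleus, and Il18 were higher in mean in CPS by 0.21 and 0.24, neither called, and without CPS replicate 2, its highest pool at 5.39, Il18 differed by 0.11 (limma unadjusted p = 0.463). Il34, a ligand of the macrophage receptor Csf1r, differed by -0.03. Across the 72 members CPS replicate 3 held the highest value of 10 and CPS replicate 5 that of 9, and CPS replicate 5 had a median deviation of 0.0932 from the mean of all arrays. That pool also had the highest mean in CPS of the leukocyte and macrophage list, 5.57, and of the lymphocyte list, 2.625. The same held for lists of endothelium genes, at 7.54, and stroma genes, at 8.95, and the part of these cells was not tested. The leukocyte and macrophage list averaged 5.39 ± 0.10 in LD and 5.41 ± 0.11 in CPS (SD, n = 6). Of its genes 1 of 15 was called, Spi1 (0.25 higher), the factor that directs myeloid development.

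By role, the share called was 7.41% of the chemokines, 12.5% of the chemokine receptors, 3.57% of the interleukin receptor chains and 7.69% of the TNF receptors, beside 4.72% of all named genes. Chemokines had 0 higher and 2 lower and a median difference of -0.02, with 10 of 27 positive, and under median centring this became 0.02 with 15 of 27 positive, 2 higher and 0 lower. Without LD replicate 6 and CPS replicate 2, 14 of 27 were positive. Of all named genes 53.6% were positive, 66.6% under median centring and 53.8% without those arrays. Chemokine receptors had 1 call in each direction, interleukins none in either direction (limma, 0 of 37), interleukin receptor chains 1 higher, TNF ligands 0 of 10 and TNF receptors 1 lower. For Tnfsf13b (BAFF), a survival factor of B cells, 2 clusters were measured, both at dim signal. The one with the higher mean differed by -0.22 (limma unadjusted p = 0.134) and the other by -0.52 (limma unadjusted p = 0.00367).

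Genes that act with the members were read from 4 further lists, beside the 4.72% of all named genes called. Of 22 measured chemokine and TNF family genes with other symbols, such as Ackr3 and Cx3cl1, 1 was higher (Relt, a TNF receptor without a well-defined role, by 0.26) and 0 were lower, with a median difference of 0.00. Of 32 measured genes of NF-kB, TNF receptor and IL-1 receptor signalling, 1 was higher and 0 were lower, and the median difference was -0.03 (0.01 under median centring). Without LD replicate 6 and CPS replicate 2, that list had 1 higher and 2 lower, where 337 of all 14557 named genes were higher and 183 lower. Of 21 measured JAK and STAT genes, 1 was higher (Ptpn6, a phosphatase that dampens cytokine receptors, by 0.23) and 0 were lower, with a median of 0.03. Without LD replicate 6 and CPS replicate 2, 2 of these 21 were higher and 0 lower. After a further quantile normalization 0 were higher, where 508 of all named genes were higher and 216 lower. Relt was lost in 10 and Ptpn6 in 7 of the 12 fits that left out 1 array.

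The 1 called signalling gene was Traf6, the ubiquitin ligase through which receptors of IL-1, IL-17 and CD40 reach NF-kB. It had a lowest value of 6.76, a median of 6.90 and a highest of 6.94 in LD, and 6.97, 7.15 and 7.36 in CPS. Every CPS pool lay above every LD pool, and groups that do not overlap, in either direction, were found in 0.295% of all named genes. The difference was 0.28 (standard error 0.08, limma unadjusted p = 0.00288 and adjusted p = 0.887), and the exact two-sided permutation p of 0.00216 is the smallest that 6 pools against 6 can give. It was called in each of the 12 fits that left out 1 array and in the 10 other fits. The other measured genes of that route, among them Myd88, Irak4, Map3k7 and Tab2, were not called, and Traf6 is described because its call was seen.

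The list of other helical cytokines and their receptors (colony-stimulating factors, the leukemia inhibitory factor and oncostatin M group, and interferons) had 21 measured genes, of which 3 were higher, 0 were lower and 18 were positive. These 18 are 85.7% of the list, and 53.6% of all named genes were positive. Only 15 of the 21 were above dim signal. At dim signal Csf2, Csf3, Csf3r and Ifng were positive, Csf3r by only 0.00066, and Epo and Ifnb1 were negative. Its median difference was 0.12, against 0.01 over all named genes, and it was 0.16 under median centring and 0.14 without LD replicate 6 and CPS replicate 2, where 1 of the 3 was still called. The mean of the list ranged from 4.40 to 4.48 in LD and from 4.49 to 4.63 in CPS. Lists of other cells also had positive medians, 0.17 for 10 stroma genes (3 higher, 1 lower) and 0.47 for 9 adrenal cortex genes (5 higher, 0 lower). They were 0.36 for 6 erythroid genes, 0.75 for 13 liver genes and 0.95 for 7 skeletal muscle genes. Smaller medians were 0.07 for 12 kidney and for 10 granulocyte and mast cell genes, 0.03 for 7 endothelium genes and 0.01 for 15 leukocyte and macrophage genes. For 9 lymphocyte genes the median was -0.02. The part of these cells in the difference of the helical list was not tested. Osm, a cytokine of the IL-6 family made by myeloid cells, had a lowest value of 2.89, a median of 3.21 and a highest of 3.66 in LD and 3.42, 3.64 and 3.90 in CPS. The difference was 0.38 (standard error 0.14, limma unadjusted p = 0.0158, exact two-sided permutation p = 0.0281) and was called in each of the 12 fits that left out 1 array.

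Lifr, the chain through which leukemia inhibitory factor and oncostatin M signal, averaged 8.43 ± 0.20 in LD and 8.67 ± 0.16 in CPS (SD, n = 6, exact two-sided permutation p = 0.0498). Ifnar1, a chain of the receptor for type I interferons, averaged 7.46 ± 0.13 in LD and 7.65 ± 0.14 in CPS (exact two-sided permutation p = 0.0368). Both were lost in 8 of the 12 fits that left out 1 array. Lifr was called without LD replicate 3 or 4 or CPS replicate 1 or 3, and Ifnar1 without LD replicate 2 or 4 or CPS replicate 1 or 6. Without LD replicate 6 and CPS replicate 2 together, Lifr differed by 0.16 and Ifnar1 by 0.19, neither called. Osmr, the second oncostatin M receptor chain, averaged 3.01 ± 0.16 in LD and 3.26 ± 0.26 in CPS and was not called (limma unadjusted p = 0.0638).

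**Figure D5:**
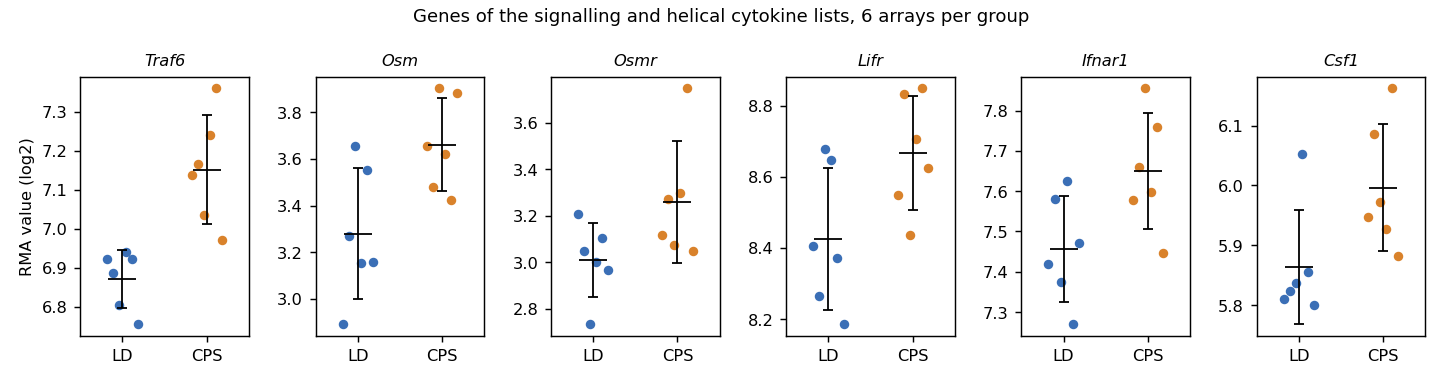
RMA values (log2, vertical axis, with a separate range in each panel) of 6 genes of the signalling and helical cytokine lists in the 6 LD and the 6 CPS arrays. Points are arrays and bars the mean and SD. The groups are apart for Traf6 and overlap for Osm, Osmr, Lifr, Ifnar1 and Csf1.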

How the data were processed

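Fetal kidney RNA was measured on 12 Affymetrix Rat Gene 2.1 ST arrays, 6 LD and 6 CPS. The authors deposited log2 values made by RMA, a method that subtracts background, brings the arrays to 1 distribution and combines the probes of a cluster, so that differences at low signal tend to be compressed. In the submitters' processing notes the software is the Affymetrix Expression Console (version not given in the sources used here). The scans were not used here, and 0 columns were left unmapped.

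The platform annotation gives a single symbol to 14824 of the 36685 clusters, several to 829 and none to 21032, and names were taken from the first kind alone. A gene with more than 1 such cluster was read from its highest mean, which left 14557 genes. All 131 members matched RefSeq symbols, and promoters came from RefSeq (GRCr8). Groups were taken from the sample titles, and the pools are the replicates. That each came from a different mother is read from the protocol and is not stated in the methods of the study. The p-values measure the spread between these arrays, whose number limits the precision.

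CPS minus LD was fitted with limma 3.58.1 (lmFit and eBayes, two-sided, R 4.3.3) to all clusters. An unadjusted p under 0.05, from the study's methods, decided a call, and p-values were also adjusted by Benjamini-Hochberg over all clusters. For single genes an exact two-sided permutation test ran over the 924 regroupings of 6 against 6, whose smallest p is 0.00216. The steps were tested on simulated data.

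Named members are those called, up to 4 of the highest mean in each role above dim signal, the 10 of lowest p and the 5 of largest residual SD above dim signal, Tnf, Il1b, Il6 and Il10 with their receptor chains, and Cxcr4 with Ackr3. Others were named after their values had been seen. The members and lists were chosen with earlier results of these data known. Alternatives were the one-way test of the methods, replicate numbers as a block, an intensity trend with robust spread, array weights, centring on medians, another round of quantile normalization, clusters at or above the median level, the lowest cluster of each gene, liver or leukocyte means as covariates, and each array left out. Leaving out both arrays of highest liver mean in their group was added after the data were seen.

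Replicate numbers did not pair the arrays: deviations of same-numbered arrays from their group means correlated at -0.0639 to 0.0461.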

Additional observations from a re-analysis of the deposited data

Results flagged for a closer look

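In 9 of 96 groups of 6 arrays, those of the named genes, 1 array lay far from the other 5 by Dixon's test at 95%. Chance flags about 1 in 20 groups of genes chosen without regard to their values. Some genes here were named for a large spread, among them Tnfrsf11b and Tnfsf10, so the count cannot be set against that rate. None of these values was left out of the results above. Of the members above dim signal, Cxcl10 was 5.383 in LD replicate 2, against 4.75 to 4.933 in the other LD arrays. Il6r, the ligand-binding chain for IL-6, was 3.942 in CPS replicate 5, against 3.304 to 3.358. Low values were 6.70 for Il10rb (others 6.948 to 6.995) and 2.885 for Tnfsf10 (others 4.039 to 4.565), both in LD replicate 6. They were also 3.77 for Tnfrsf11b in CPS replicate 3, 7.435 for Tnfrsf1a in CPS replicate 6 and 5.639 for Tnfrsf1b in CPS replicate 1. At dim signal, Il1b was 2.494 in LD replicate 1 and Cxcr6 was 1.947 in CPS replicate 2. LD replicate 6, which holds 2 of the 9 values, had the highest liver marker mean of its group, 6.77, and the part of that in them was not tested.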

How the results depend on the processing

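The 2 members called higher became 4 with the methods' unpaired one-way test, 6 with median centring, 4 with the liver mean as a covariate, 1 without both arrays of highest liver mean, and 1 to 4 with each array left out. The 4 called lower became 2 with an intensity trend and robust spread, 1 with median centring, 2 with a further quantile normalization, 1 among the 46 members at or above the median level, and 2 to 5 with each array left out. The replicate block gave 1 higher and 5 lower, sharing 2 of the 6 calls, and as the numbers do not pair the arrays a call lost under it is not read as a weaker effect. Degrees of freedom are fewer with the liver or leukocyte covariate, with the replicate block and with arrays left out. The cause of a changed count was not tested. Of all 36685 clusters 1946 were called in the main fit, and 1223 of the 18343 at or above the median level. The one-way test called 2020, median centring 1823 and the liver covariate 1840. An intensity trend with robust spread called 2060, a further quantile normalization 2008 and the replicate block 1984. Without both arrays of highest liver mean 1649 were called, and with each array left out 1639 to 2555. After adjustment 0 were called in every fit. Members above dim signal were 72, 46 against the median of all clusters, 123 against the median of the olfactory and vomeronasal receptors, and 71 to 73 with each array left out. For single named genes 916 alternative values stayed on their side of the threshold, 84 of them uncalled values that changed sign, 94 lost the call, 35 gained it and none reversed a called direction. With 1 array per pool and a median residual SD of 0.226, small differences at dim signal cannot be resolved.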
